A study of Zea mays with 12 samples.

Results

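Giant cells of maize roots were compared between 21 and 14 days after inoculation with the root-knot nematode Meloidogyne incognita. The comparison rests on 6 of the 12 arrays of the study, namely the 3 titled as giant cells of 21 days and the 3 titled as giant cells of 14 days. The arrays were taken by their titles, while the comparison was chosen with earlier results of these data known. All plants carried 1 genotype, labelled IS A A188 C B73 Cross, and were inoculated as seedlings aged 2 weeks with 1000 stage 2 juveniles. Each giant-cell sample, at 21 as at 14 days, came from a laser-captured area of about 5000000 square micrometres, or about 40 to 60 cells, with 3 biological replicates a day. Control cells of 21 and of 14 days, also with 3 replicates each, came from parts of infested roots that held no nematodes, with about 13000000 square micrometres or 75 to 150 cells a sample. The control plants were thus infested too. The labels do not give the number of plants or galls behind an array, nor do they tie an array of 21 days to one of 14 days. Time after inoculation and age of the plant cannot be told apart in giant cells. The same holds for control cells, whose plants were inoculated alike and sampled on the same 2 days. Control cells are given beside the results only to show changes that the 2 cell types share.

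Giant cells are root cells that a root-knot nematode converts into its feeding site. They enlarge, pass through repeated nuclear divisions without division of the cell, replicate their DNA beyond that, and supply the feeding nematode with water and nutrients through a dense cytoplasm and ingrown walls. The older a feeding site is, the further the nematode has grown towards the egg-laying female, so the later time point samples cells that have fed it for longer.

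Of 17621 probe sets for maize transcripts, 12080 reached the brightness needed for a test. Few of them carry a gene name in the annotation, so the named genes number 685. The median signal, in the scaled intensity units of the MAS5 algorithm, was 199.8, 204.7 and 208.4 on the giant-cell arrays of 21 days and 229.9, 225.3 and 209.7 on those of 14 days. Pearson correlations across probe sets were 0.917 to 0.919 among arrays of 21 days, 0.901 to 0.919 among those of 14 days, and 0.862 to 0.901 between the days, probe sets not being independent replicates. The first principal component of the 6 giant-cell arrays held 35.3% of the variance and placed the 3 arrays of 21 days apart from the 3 of 14 days. The added hybridization control transcripts were higher at 21 days by 0.15 on the log2 scale with overlapping arrays, and the ratios of 3′ to 5′ signal of 5 control genes had higher means at 21 days by 0.31 to 0.89, all with overlapping arrays. Their part in the results was not tested.

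Between 21 and 14 days 77 probe sets changed in giant cells, 0.637% of those tested, at a Benjamini-Hochberg adjusted p under 0.05 in limma. Of these, 33 were higher at 21 days (0.273%) and 44 were lower (0.364%), with log2 changes from 4.02 down to -4.0 and a smallest size of 0.746. The change was at least 2-fold for 27 of the probe sets that were higher and for all 44 that were lower, 0.588% of those tested. In all 77 the arrays of 21 days lay wholly above or wholly below those of 14 days, against 25.8% of all probe sets tested (11.1% with the arrays of 21 days above and 14.7% with them below). The 77 were chosen by these same arrays, which favours such a separation. Without the adjustment for many tests 2134 probe sets (17.7%) had a p under 0.05 in limma. The median log2 change over all probe sets was -0.04. Where arrays were scaled to the added hybridization controls in place of the deposited scaling, that median moved to -0.18. In captured tissue of this kind, fewer cells of a type and less RNA per cell cannot be told apart.

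The number that passed depended strongly on single arrays. Without array 1 of 21 days 4 probe sets passed, without array 3 of 21 days 15, without array 2 of 14 days 9 and without array 3 of 14 days 13. Array 2 of 21 days (89 without it) and array 1 of 14 days (78 without it) moved the number less. The probe sets that passed were still not all the same, as given below for named genes. Control arrays, which enter the shared estimate of the spread, mattered as well, with 205 without array 1 of the control cells of 14 days, 37 without array 2 of that group and 44 without array 2 of the control cells of 21 days.

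**Figure D1:**
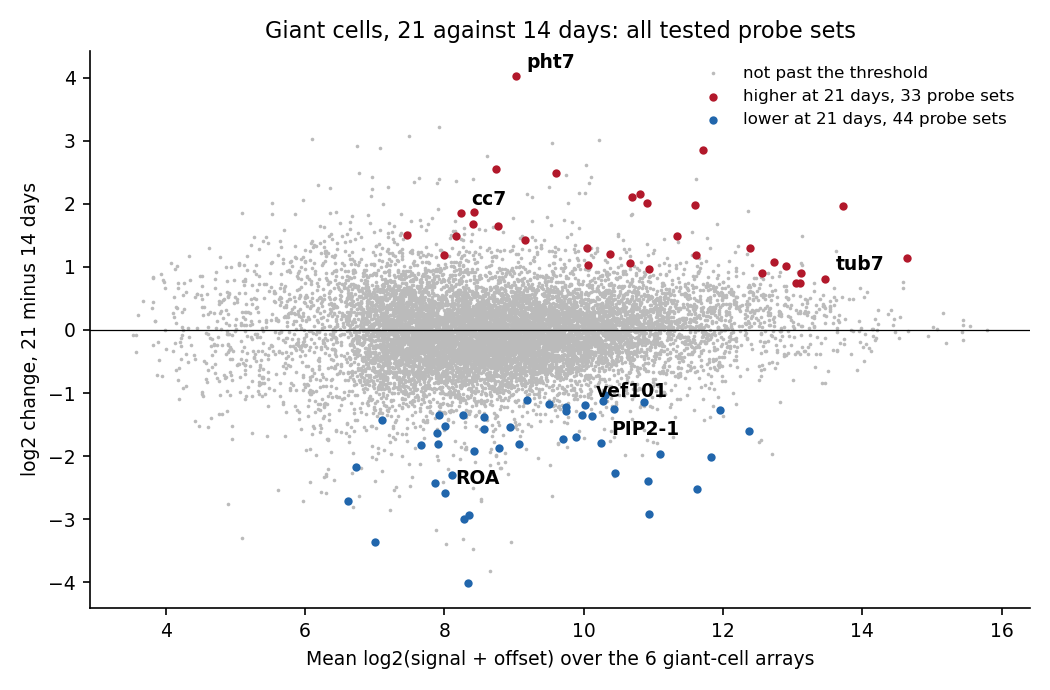
Log2 change of each of the 12080 tested probe sets in giant cells (21 minus 14 days, vertical axis) against its mean log2 signal over the 6 giant-cell arrays (horizontal axis). Coloured points are the 33 probe sets higher and the 44 lower at 21 days at an adjusted p under 0.05 (limma), and the 6 named genes among them carry their names.

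Some of the 77 probe sets share the number in their ID, as Zm.4811.1.A1_x_at, Zm.4811.1.A1_a_at and Zm.4811.2.A1_x_at do. Fewer transcripts than probe sets may thus be behind the count. Most of the 77 probe sets have no gene in the annotation at hand (69 of 77). Among them the largest rises were those of Zm.16049.2.A1_at and ZmAffx.1083.1.A1_at. Zm.16049.2.A1_at had signals of 9085, 7807 and 10614 in giant cells of 21 days and 1258, 1397 and 1099 in those of 14 days (log2 change 2.86 ± 0.26 SE, n = 3 arrays a day, limma adjusted p = 0.00037). It also rose in control cells, by 2.31 ± 0.26 (limma adjusted p = 0.0087). ZmAffx.1083.1.A1_at had 1303, 670 and 1270 at 21 days and 321, 108 and 133 at 14 days (2.56 ± 0.38, limma adjusted p = 0.012), against a change in control cells of 0.36 ± 0.38. The 2 deepest falls were those of Zm.13885.1.A1_s_at and Zm.6429.1.A1_at. Zm.13885.1.A1_s_at had 46.3, 90.1 and 85.7 at 21 days and 1395, 894 and 1704 at 14 days (-4.0 ± 0.66, limma adjusted p = 0.02). Zm.6429.1.A1_at had 35.1, 80.7 and 6.90 at 21 days and 646, 598 and 167 at 14 days (-3.35 ± 0.60, limma adjusted p = 0.029). In each of these 4 the days were separated by a clear gap between the nearest arrays.

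Among the 685 named genes 6 passed the threshold (0.876%), 3 higher and 3 lower at 21 days (0.438% each). The 3 that rose were pht7, cc7 and tub7. The 3 that fell were ROA, PIP2-1 and vef101.

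The largest change of all was that of pht7 (Gene ID 732717), which encodes a phosphate transporter. Its signal was 2956, 1806 and 1706 in giant cells of 21 days and 232, 58.6 and 121 in those of 14 days, a log2 change of 4.02 ± 0.53 (16.3-fold, limma adjusted p = 0.0088). Every array of 21 days was far above every array of 14 days. Control cells had 726, 223 and 413 at 21 days and 161, 529 and 245 at 14 days, which overlap (0.54 ± 0.53). Giant cells of 21 days lay above every control array, and those of 14 days overlapped control cells of that day at the low end. The difference between the changes of the 2 cell types was 3.48 ± 0.75 with a limma adjusted p of 0.31, and it did not pass. Without array 1 of 21 days, the brightest, the log2 change of pht7 was 3.77 with an adjusted p of 0.058. Among the other 6 tested genes of phosphate and ion transport none passed (limma). They ranged from -1.02 for kch4, a potassium channel gene, to 0.39 for mha4, a plasma membrane proton pump gene, and pht1, another phosphate transporter gene, was at 0.08.

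The cystatin gene cc7 (Gene ID 732754) encodes an inhibitor of cysteine proteases. It had 422, 816 and 517 at 21 days against 154, 145 and 149 at 14 days (1.85 ± 0.38, limma adjusted p = 0.049). The arrays of 14 days were nearly equal, and array 2 of 21 days was the highest. In control cells the signals were 96.7, 107 and 247 at 21 days and 76.8, 144 and 137 at 14 days, near the level of giant cells of 14 days (0.23 ± 0.38). Of the other 8 tested cystatin and protease genes none passed. Their largest change was that of cc3, another cystatin gene, at -0.68 with 305, 432 and 361 at 21 days and 607, 643 and 521 at 14 days, which did not overlap.

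The β-tubulin gene tub7 (Gene ID 542705) encodes a subunit of microtubules. It was among the brightest genes, with 13270, 15086 and 17089 at 21 days and 8996, 8455 and 8314 at 14 days (0.81 ± 0.17, limma adjusted p = 0.049). Control cells, with 11048, 11960 and 8134 at 21 days and 10126, 10071 and 9718 at 14 days, overlapped between days and lay mostly between the 2 groups of giant cells.

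ROA (Gene ID 542738), listed as a replication origin activator, belongs to the minichromosome maintenance (MCM) family, whose proteins form the helicase that opens DNA for replication. It had 77.3, 181 and 62.1 at 21 days and 699, 811 and 425 at 14 days (-2.58 ± 0.46, 5.98-fold lower, limma adjusted p = 0.029). Control cells showed no such drop, with 894, 811 and 445 at 21 days and 236, 441 and 725 at 14 days (0.68 ± 0.46). The giant cells of 14 days were thus in the range of the control cells, while those of 21 days were below every other array. The difference between the changes of the cell types was -3.26 ± 0.65 (limma adjusted p = 0.31).

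PIP2-1 (Gene ID 541888) is an aquaporin of the plasma membrane, a channel for water. Its signals were 747, 627 and 572 at 21 days and 1698, 2174 and 3109 at 14 days (-1.79 ± 0.28, limma adjusted p = 0.015). Control cells stood higher, with 3585, 2806 and 2160 at 21 days and 7404, 4193 and 5388 at 14 days, and were also lower at the later time without overlap (-0.98 ± 0.28, limma adjusted p = 0.33). A dimmer probe set of the same gene did not show this, with 64.0, 88.8 and 70 at 21 days and 96.0, 68.1 and 51.3 at 14 days (0.07 ± 0.35).

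vef101 (Gene ID 542512, synonym EMF-like) is a Polycomb group gene of the kind that keeps other genes silent through histone methylation. It had 607, 664 and 768 at 21 days and 1495, 1808 and 1401 at 14 days (-1.19 ± 0.24, limma adjusted p = 0.045), with a narrow spread within each day. In control cells it had 365, 464 and 573 at 21 days and 744, 477 and 549 at 14 days (-0.33 ± 0.24).

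**Figure D2:**
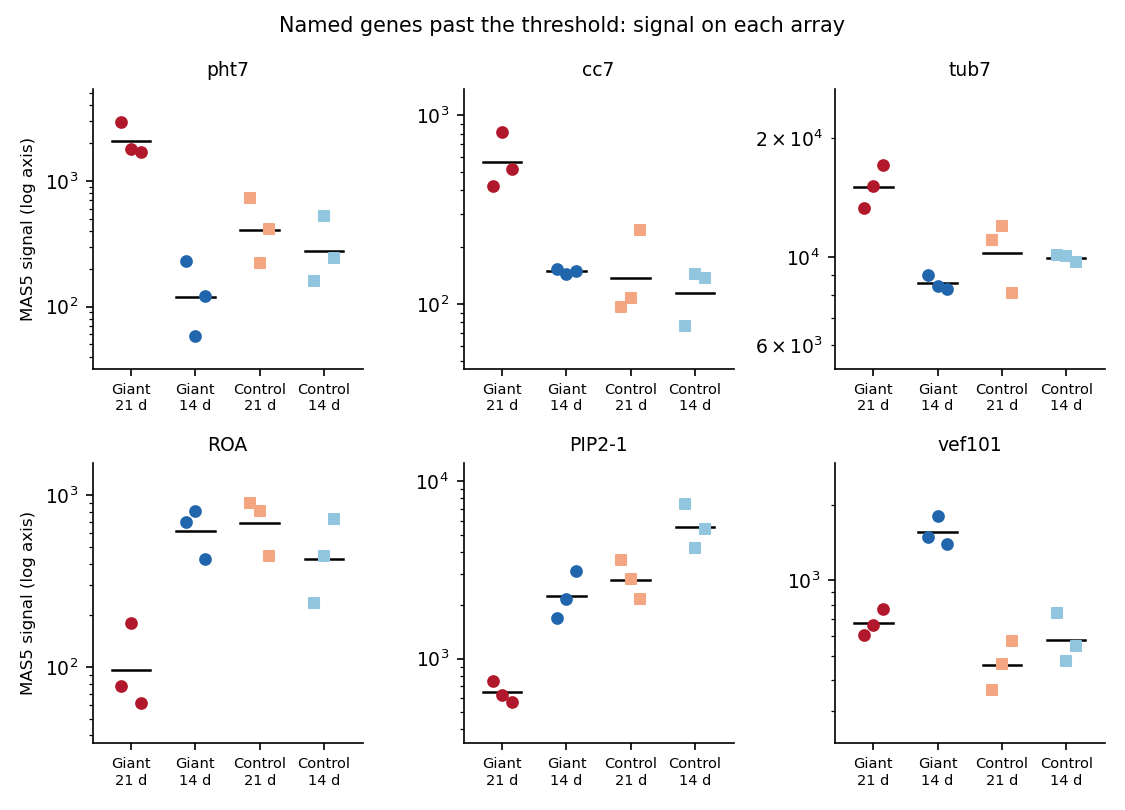
MAS5 signal (log axis) on each array for the 6 named genes past the threshold, with giant cells of 21 and 14 days (circles) and control cells of 21 and 14 days (squares); each point is 1 array and each line the mean of the log2 signals. In every panel the 3 giant-cell arrays of 21 days lie on 1 side of the 3 of 14 days, which the choice of the genes by these arrays favours.

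How firm these 6 calls were differed. Over all alternatives that used the same probe set, their adjusted p values (limma) ran from 0.005 to 0.058 for pht7, 0.0074 to 0.073 for PIP2-1, 0.0075 to 0.13 for ROA, 0.017 to 0.16 for vef101, 0.018 to 0.15 for cc7 and 0.022 to 0.23 for tub7. Scaling to the hybridization controls ended the calls of ROA, cc7, tub7 and vef101. Leaving out any 1 giant-cell array ended the calls of cc7, tub7 and vef101. Leaving out array 1 or 3 of 21 days, or array 2 or 3 of 14 days, ended that of PIP2-1, and the same arrays or array 1 of 14 days ended that of ROA. Without array 2 of the control cells of 14 days the calls of ROA, cc7, tub7 and vef101 were lost, and without array 2 of the control cells of 21 days those of cc7, tub7 and vef101. Without array 3 of the control cells of 14 days cc7, tub7 and vef101 were lost, and without array 1 of the control cells of 21 days tub7.

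The list of DNA replication and cell cycle genes did not hold ROA, which fell, and none of its own tested members passed the threshold. Of 18 members 10 were bright enough to be tested, and 9 of these had a negative log2 change, with a median of -0.44 against -0.02 over all named genes, and 5 had arrays of 21 days wholly below those of 14 days, against 12.7% of all named genes. This list and those below were chosen with earlier results of these data known, so such counts only describe them. In control cells the median of the same 10 was 0.29. Under the alternatives the median in giant cells stayed between -0.58 and -0.20.

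MCM6, a subunit of the replicative helicase, had 77.8, 117 and 16.2 at 21 days and 390, 840 and 189 at 14 days (-2.63 ± 0.64, limma adjusted p = 0.074). Both dimmer probe sets of the gene were also lower, at -2.21 ± 0.61 and -2.41 ± 0.66. MCM7, of the same complex, had 77.4, 91.7 and 25.5 at 21 days and 248, 209 and 123 at 14 days (-1.53 ± 0.57, limma adjusted p = 0.19). For both genes the arrays of the 2 days did not overlap in the brightest probe set, and array 3 was the lowest in each day.

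The 2 genes for the sliding clamp of DNA polymerase differed from each other. pcna2 had 51.7, 252 and 26.5 at 21 days and 652, 261 and 397 at 14 days (-2.33 ± 0.66, limma adjusted p = 0.1), with array 2 of 21 days close to the lowest array of 14 days. PCNA had 296, 472 and 186 at 21 days and 446, 248 and 234 at 14 days, with a change of 0.00 ± 0.40. The kinase gene wee1, which restrains entry into mitosis, had 22.7, 42.4 and 5.70 at 21 days and 79.7, 71.3 and 107 at 14 days (-1.68 ± 0.56, limma adjusted p = 0.15). RBR1, a retinoblastoma-related repressor of entry into S phase, had 325, 332 and 329 at 21 days and 699, 488 and 440 at 14 days (-0.68 ± 0.27, limma adjusted p = 0.23). The remaining 4 tested members, cycD2, orc1, cdc2 and cks, lay between -0.20 and -0.09 with overlapping arrays. The mitotic cyclin genes cyc1, cyc2 and cyc3 were too dim to be tested, with signals of at most 43.5 in giant cells of 21 days and at most 123 in those of 14 days.

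Of the 5 tested histone genes 4 had a negative change, and none passed. The median was -0.72 in giant cells and 0.72 in control cells, and it stayed between -0.86 and -0.60 in giant cells under the alternatives. H1, a linker histone gene, had 1421, 1210 and 1015 at 21 days and 2212, 1685 and 2114 at 14 days (-0.72 ± 0.22, limma adjusted p = 0.12). In control cells the change had the opposite sign, with 2729, 2509 and 3515 at 21 days and 1416, 1771 and 1264 at 14 days (0.97 ± 0.22). Neither cell type's arrays overlapped between days. The difference between the 2 changes, -1.69 ± 0.31, had the smallest p of all named genes in that contrast and a limma adjusted p of 0.21. All 6 probe sets of H1 had a negative change in giant cells, from -1.21 to -0.41. The linker histone gene hon101 had 1616, 1270 and 1387 at 21 days and 2494, 2240 and 3905 at 14 days (-0.97 ± 0.27, limma adjusted p = 0.099). his2b5, an H2B gene, had 565, 2142 and 364 at 21 days and 2321, 1685 and 1926 at 14 days (-1.35 ± 0.53), so array 2 of 21 days lay among those of 14 days. The gene of centromeric histone H3, Hist1h3b, was the exception, at 0.70 ± 0.50.

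The 50 tested genes of chromatin regulation were split evenly, with 24 positive and 26 negative changes and a median of -0.04. Besides vef101 none passed. In 18 of the 50 the arrays of the 2 days did not overlap, 36% against 25.7% of all named genes. They were 8 with higher and 10 with lower arrays at 21 days. nfd101, which encodes a protein of the nucleosome and chromatin assembly group D, had 128, 608 and 112 at 21 days and 943, 834 and 1482 at 14 days (-2.28 ± 0.54, limma adjusted p = 0.07). hda113, a histone deacetylase gene, had 684, 672 and 947 at 21 days and 1350, 1727 and 1537 at 14 days (-1.0 ± 0.22, limma adjusted p = 0.058), while a dimmer probe set of it was at 0.07. dmt101, the maintenance DNA methyltransferase gene, had 191, 134 and 132 at 21 days and 344, 361 and 369 at 14 days (-1.20 ± 0.30, limma adjusted p = 0.08). On the higher side were 3 nucleosome assembly genes, nfa102 at 0.77, nfa104 at 0.70 and nfa103 at 0.67, and the methyl-binding-domain gene mbd101 at 0.97, none of them past the threshold.

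**Figure D3:**
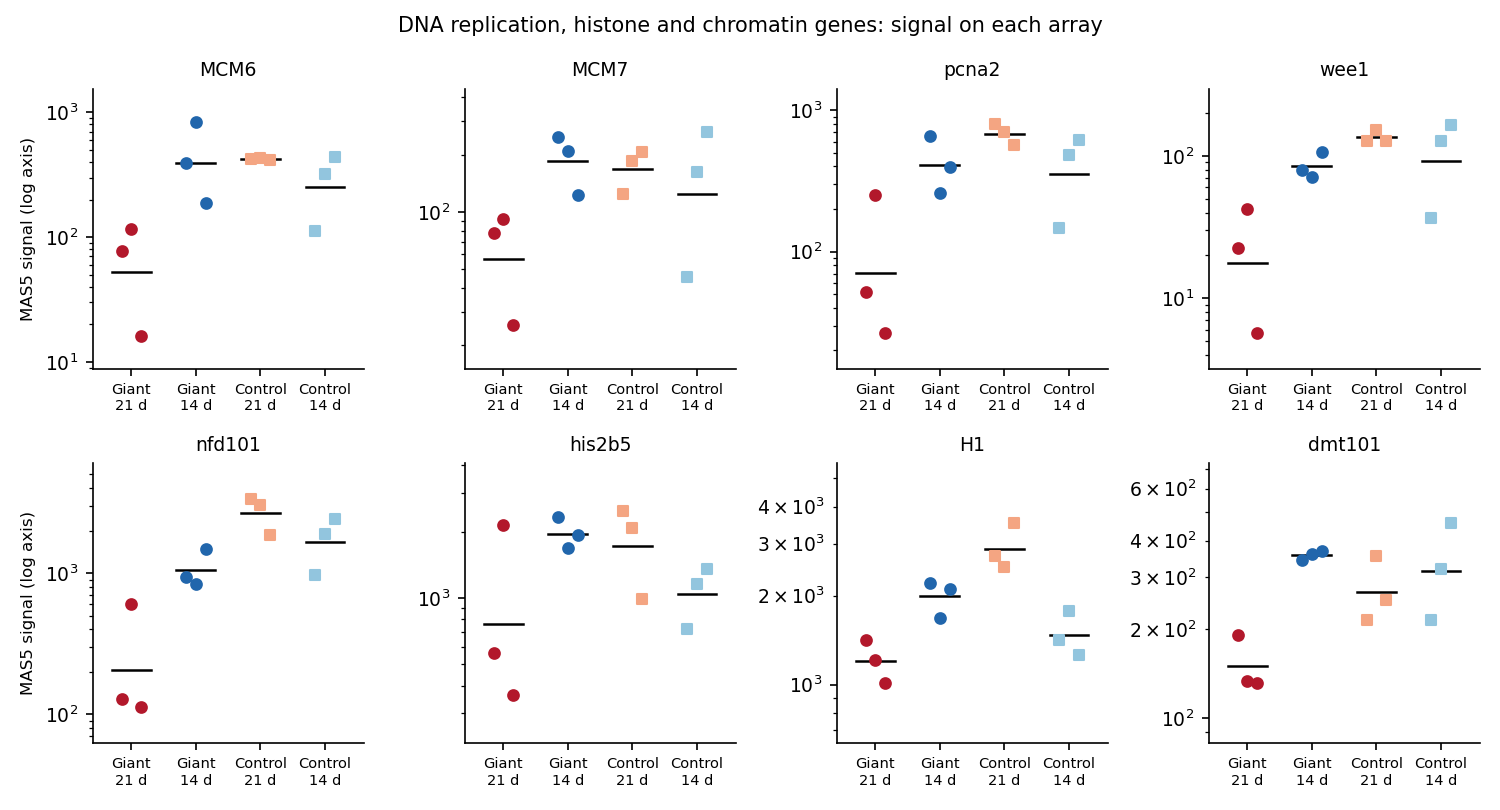
MAS5 signal (log axis) on each array for genes of DNA replication (MCM6, MCM7, pcna2), the cell cycle (wee1), histones (his2b5, H1) and chromatin (nfd101, dmt101); giant cells are circles, control cells squares, and lines are means of log2 signals. None passed the threshold; array 2 of 21 days, the middle red point, is the highest of its group for all but H1 and dmt101.

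Array 2 of the giant cells of 21 days stood out within its group for these genes. It was the highest of the 3 for ROA, MCM6, MCM7, pcna2, PCNA, wee1, nfd101 and his2b5. Without it ROA was at -3.0 ± 0.46 (limma adjusted p = 0.012), nfd101 at -3.04 ± 0.40 (0.0069), pcna2 at -3.15 ± 0.55 (0.024) and his2b5 at -2.09 ± 0.40 (0.038), so the last 3 passed the threshold in that setting and not with all arrays. For each of these genes it was the array of 21 days nearest to those of 14 days, so leaving it out favours a deeper fall. The same array had the highest summed signal of the 5 xylem and secondary wall markers in its group. Those sums were 341.9, 767.5 and 673.4 at 21 days and 373.3, 1103 and 361 at 14 days, against 828.1 to 3136 in control cells of 21 days and 1883 to 3377 in those of 14 days. Of these markers cesa10, cesa11, CesA12 and bk2 were highest on array 2 of 21 days. LAC1, the largest part of each sum of 21 days, was highest on array 3, with 249, 441 and 517. It overlapped control cells of 21 days, with 171, 333 and 422. The part of these markers in the result was not tested.

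Of 11 ribosomal protein genes tested, 10 had a positive change with a median of 0.51, and 4 had arrays of 21 days wholly above those of 14 days (13% of all named genes did), but none passed. The median stayed between 0.36 and 0.65 under the alternatives. Control cells had nearly the same median, 0.54. RPL19, of the large subunit, had 7435, 7093 and 9903 at 21 days and 4809, 4746 and 4219 at 14 days (0.81 ± 0.19, limma adjusted p = 0.063), with a change of 0.79 ± 0.19 in control cells. rps6, of the small subunit, had 7134, 6399 and 7856 at 21 days and 4748, 4460 and 3732 at 14 days (0.73 ± 0.19, limma adjusted p = 0.085). tif5A, the gene of translation factor 5A, had 8486, 7173 and 4090 at 21 days and 3483, 2334 and 3166 at 14 days (1.09 ± 0.28, limma adjusted p = 0.085), again with a like value in control cells, 0.98 ± 0.28. The 14 tested translation factors as a group had a median of 0.04. A probe set of arpp3, an acidic ribosomal protein gene, Zm.348.1.A1_x_at, did pass at 1.30 ± 0.27 (limma adjusted p = 0.049), but the brighter probe set that stands for the gene was at 0.49 (adjusted p = 0.12). arpp3 was chosen after its values were seen.

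Among 21 tested cytoskeleton genes, tub7 was the only one past the threshold, and 6 had arrays of 21 days wholly above those of 14 days against 1 with arrays wholly below. Of all named genes 13% lay wholly above and 12.7% wholly below. The median of the cytoskeleton genes was 0.12 and changed sign where arrays were scaled to the hybridization controls (-0.03) or all probe sets were counted (-0.08). ADF3, an actin depolymerizing factor gene, had 12865, 11612 and 14700 at 21 days and 8506, 7170 and 7664 at 14 days (0.74 ± 0.16, limma adjusted p = 0.058). The dimmer probe sets of ADF3 were at 0.36 and -0.08. tua5, an α-tubulin gene, had 2269, 2197 and 1768 at 21 days and 1271, 1164 and 858 at 14 days (0.93 ± 0.29, limma adjusted p = 0.13). PRO4, a gene of the actin-binding protein profilin, had 9407, 8923 and 9689 at 21 days and 6396, 5712 and 7890 at 14 days (0.50 ± 0.17, limma adjusted p = 0.16). For these 3 genes the days did not overlap.

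Of 9 tested aquaporins of the plasma membrane, PIP2-1 fell and the other 8 did not pass, with a median over the 9 of -0.33 in giant cells and -0.66 in control cells. PIP1-1 had 174, 617 and 729 at 21 days and 771, 1254 and 1382 at 14 days (-1.34 ± 0.44, limma adjusted p = 0.14). None of the 6 tested aquaporins of the vacuole membrane passed. TIP1-1 was at -1.02 ± 0.33 with 222, 365 and 254 at 21 days and 486, 364 and 1021 at 14 days, where 1 pair of arrays met. TIP1-2 was at 2.02 ± 0.84, with dim and scattered signals of 20.8, 218 and 107 at 21 days and 55.9, 4.82 and 3.39 at 14 days.

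Nitrogen and carbon enzymes gave values that stayed short of the threshold. GLN6, a cytosolic glutamine synthetase gene, had 3912, 4982 and 3990 at 21 days and 2678, 1422 and 910 at 14 days (1.49 ± 0.31, limma adjusted p = 0.053). Control cells held 9845 to 14864 at 21 days and 10263 to 12019 at 14 days, above all giant-cell arrays. Without array 1 of 14 days GLN6 passed, at 1.90 ± 0.24 (limma adjusted p = 0.0067). That array was the one of 14 days nearest to those of 21 days, so leaving it out favours a larger change. Of the 7 tested genes of glutamine, asparagine and glutamate metabolism 6 had a positive change, with a median of 0.79 that moved between 0.47 and 1.04 under the alternatives. gdh1, for glutamate dehydrogenase, was the one below 0, with 234, 211 and 260 at 21 days and 395, 450 and 361 at 14 days (-0.75 ± 0.34). The malate dehydrogenase gene mdh6 had 324, 398 and 433 at 21 days and 224, 65.1 and 95.9 at 14 days (1.68 ± 0.42, limma adjusted p = 0.082). Without array 1 of 14 days, again the nearest to those of 21 days, mdh6 passed at 2.14 ± 0.40 (limma adjusted p = 0.04). CYTMDH, for the cytosolic form, had the opposite sign, with 5933, 4507 and 3725 at 21 days and 6259, 7007 and 10406 at 14 days (-0.73 ± 0.23, limma adjusted p = 0.13).

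None of the 19 tested genes of glycolysis and fermentation passed, and their median was -0.34 against 0.03 in control cells. GAPC3, a cytosolic glyceraldehyde-3-phosphate dehydrogenase gene, had 2079, 2307 and 2242 at 21 days and 2341, 10703 and 7698 at 14 days (-1.39 ± 0.43, limma adjusted p = 0.13). Array 1 of 14 days was close to the arrays of 21 days, and the others of 14 days were far above. Without array 1 of 14 days GAPC3 was at -2.04 ± 0.27 with a limma adjusted p of 0.0074. Leaving out the array nearest to the other day favours such a result. The pyruvate decarboxylase gene pdc2, of fermentation, had 689, 283 and 552 at 21 days and 189, 130 and 258 at 14 days (1.32 ± 0.48, limma adjusted p = 0.18). None of the 7 tested starch synthesis genes or the 8 of sucrose cleavage and sugar transport passed, and both groups had a median of -0.27. Agp2, for a subunit of the enzyme that makes ADP-glucose, had 227, 202 and 227 at 21 days and 80.3, 59.5 and 124 at 14 days (1.28 ± 0.56, limma adjusted p = 0.26), with 1.22 in control cells. The fructokinase gene frk2 had 7010, 5175 and 8519 at 21 days and 4892, 4100 and 3781 at 14 days (0.67 ± 0.20, limma adjusted p = 0.12).

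Of 17 tested cellulose synthase, expansin and xyloglucan enzyme genes none passed, with a median of 0.21, and 1 had arrays that did not overlap, against 25.7% of all named genes. This was CesA-7, a cellulose synthase gene, with 805, 1079 and 615 at 21 days and 1307, 1540 and 1486 at 14 days (-0.82 ± 0.48). HRGP, for a hydroxyproline-rich wall glycoprotein, had 65.2, 316 and 111 at 21 days and 1282, 515 and 780 at 14 days (-2.51 ± 0.81, limma adjusted p = 0.14). In control cells its change was 1.44 ± 0.81.

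Among the 9 tested genes of lipoxygenases and jasmonate synthesis 7 had a positive change, the median was 0.58 in giant cells and -0.34 in control cells, and 5 had arrays of 21 days wholly above those of 14 days, as 13% of all named genes did. None passed. opr7, for a 12-oxophytodienoate reductase, had 674, 515 and 455 at 21 days and 195, 397 and 287 at 14 days (0.92 ± 0.37, limma adjusted p = 0.22). aoc1, for allene oxide cyclase, had 1321, 1158 and 874 at 21 days and 591, 823 and 812 at 14 days (0.58 ± 0.25, limma adjusted p = 0.26). aos1, for allene oxide synthase, which acts just before it in the pathway, was at -1.11 ± 0.42 with overlapping arrays. In cytokinin signalling the receptor gene HK1 had 68.0, 145 and 130 at 21 days and 245, 267 and 168 at 14 days (-0.97 ± 0.32, limma adjusted p = 0.14). The phosphotransfer gene HP1 had 459, 345 and 381 at 21 days and 221, 273 and 148 at 14 days (0.89 ± 0.30, limma adjusted p = 0.15). The 17 tested cytokinin and gibberellin genes had a median of -0.02.

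**Figure D4:**
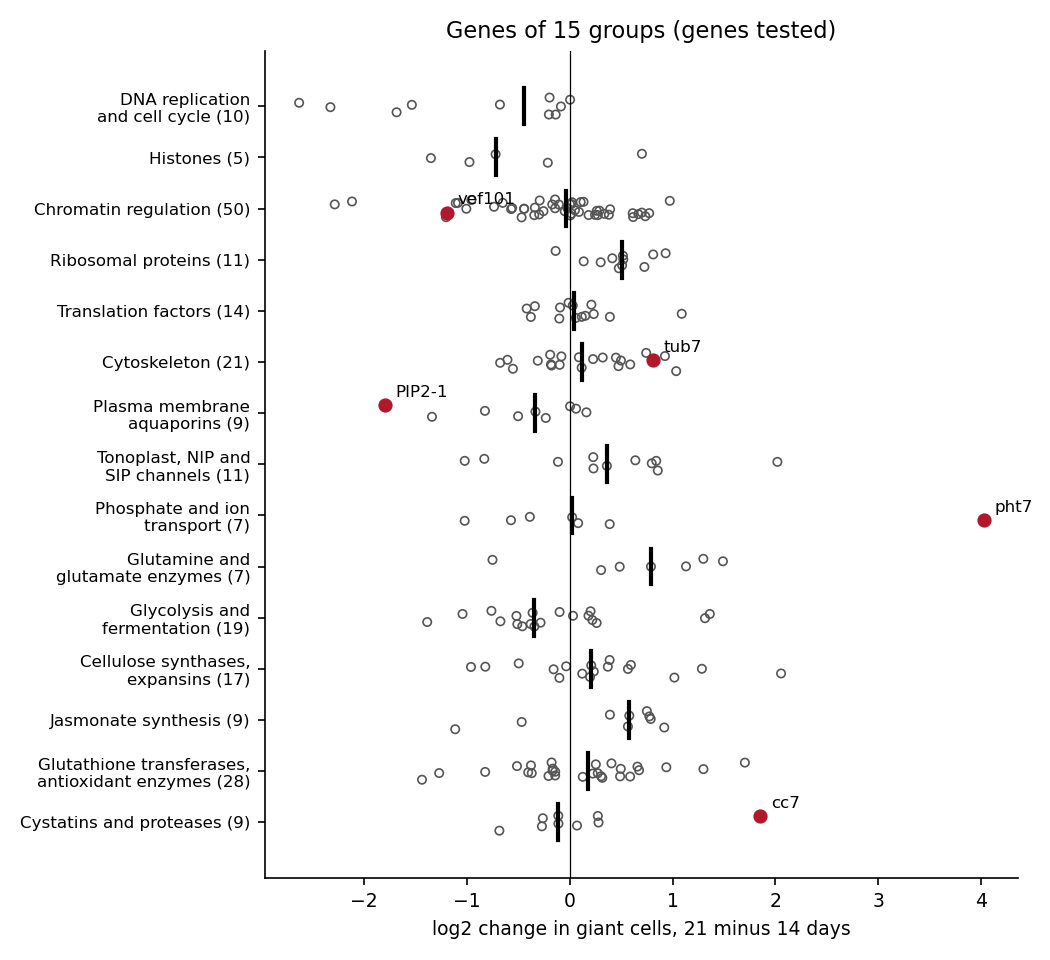
Log2 change in giant cells (21 minus 14 days) of every tested gene in 15 groups, with the number of genes in brackets; open circles did not pass the threshold, filled circles did, and black bars are group medians. Replication and histone genes lie mostly left of 0, with medians of -0.44 and -0.72, and ribosomal protein genes mostly right of it, with a median of 0.51.

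Some of the largest changes that did not pass were in genes of sulfur assimilation, stress and signalling. apr, for adenylylsulfate reductase of sulfur assimilation, had 989, 208 and 785 at 21 days and 60.9, 124 and 117 at 14 days (2.39 ± 0.67, limma adjusted p = 0.1). EMB5, a late embryogenesis abundant protein gene, had 301, 222 and 448 at 21 days and 94.3, 23.4 and 78.3 at 14 days (2.26 ± 0.61, limma adjusted p = 0.096). A gene listed as calmodulin (Gene ID 606468), a calcium sensor, had 3494, 2509 and 3323 at 21 days and 1022, 770 and 816 at 14 days (1.82 ± 0.42, limma adjusted p = 0.067). In these 3 the days did not overlap, and the log2 change in control cells was 0.69 for apr, 1.47 for EMB5 and 0.15 for calmodulin.

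The glutathione transferase gene gst30 had 142, 153 and 172 at 21 days and 39.2, 27.0 and 63.0 at 14 days (1.70 ± 0.60, limma adjusted p = 0.16), against -0.91 ± 0.60 in control cells. The 28 tested genes of glutathione transferases and antioxidant enzymes had a median of 0.18, which turned negative with a stricter filter (-0.14), with no filter (-0.01) and without array 2 of 14 days (-0.09) or of 21 days (-0.10). cat1, for a catalase, had 1612, 1242 and 965 at 21 days and 1830, 2244 and 2626 at 14 days (-0.82 ± 0.25, limma adjusted p = 0.12), and was at -0.83 in control cells. The storage globulin gene glb3 had 25.7, 207 and 51.6 at 21 days and 408, 329 and 545 at 14 days (-2.47 ± 0.61, limma adjusted p = 0.078). It passed without array 2 of 21 days, at -3.21 ± 0.53 with a limma adjusted p of 0.018. That array was the one of 21 days nearest to those of 14 days, which favours a deeper fall. The kinase gene mpk6 had 256, 204 and 140 at 21 days and 586, 408 and 338 at 14 days (-1.12 ± 0.30, limma adjusted p = 0.093).

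The genes hsp101 and chitinase varied widely between arrays of 14 days. hsp101, for a chaperone that resolves protein aggregates, had 337, 288 and 105 at 21 days and 371, 656 and 3581 at 14 days, with a change of -2.09 ± 1.47 (limma adjusted p = 0.49). In giant cells the days did not overlap, and without their array 3 of 14 days the change was -1.14 ± 1.61. Control cells had 25.7, 108 and 41.3 at 21 days and 1.29, 57.6 and 2563 at 14 days. Array 3 of 14 days was thus the highest of its group for hsp101 in both cell types. A gene listed as chitinase (synonym chn1), for an enzyme that degrades chitin, had 3744, 3493 and 2977 at 21 days and 3643, 1537 and 3.67 at 14 days, where array 3 was nearly at the bottom of the scale (3.01 ± 1.69, limma adjusted p = 0.38).

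Markers of other root tissues were compared as lists. The 4 tested growth-regulating factors, transcription factors of growing organs listed here for lateral root primordia, had a mean log2 signal lower at 21 days by 0.45 without overlap (exact permutation p = 0.1, the smallest that 3 against 3 arrays can give, adjusted p = 0.35 over 14 array measures). Their summed signals were 1017, 760.9 and 882.1 at 21 days and 1008, 1184 and 1405 at 14 days, above the 251.6 to 698.1 of all control arrays. None of the 4 passed. GRF8 had 246, 126 and 117 at 21 days and 292, 448 and 484 at 14 days (-1.32 ± 0.40, limma adjusted p = 0.12), while its dimmer probe set overlapped between days (-0.51 ± 0.44). GRF4 was at -0.58 ± 0.29 without overlap and GRF2 at -0.46 ± 0.42 with overlap. GRF12 had the opposite sign without overlap, with 394, 293 and 374 at 21 days and 233, 284 and 190 at 14 days (0.57 ± 0.46, limma adjusted p = 0.56). The 2 tested markers of root hair and epidermis had a mean lower by 0.55 with the same exact permutation p, from rop6, a gene of a small GTPase (-1.17), and not rbohB, for an NADPH oxidase (0.07). Their summed signals were 1056 to 1502 at 21 days and 1055 to 1394 at 14 days. The mean log2 signal of the 5 xylem markers differed by -0.01 between the days (exact permutation p = 1), and the phloem marker sut1 was too dim to be tested, at 3.99 to 11.4 at 21 days and 3.51 to 44.3 at 14 days. The 3 tested meristem markers had a mean lower by 0.21 (exact permutation p = 0.5), with summed signals of 342.8 to 655.8 at 21 days and 417.2 to 666.9 at 14 days. The part of other cells in the results was not tested.

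The same comparison in control cells gave far fewer changes. There 3 probe sets passed (0.0248% of those tested, limma), all higher at 21 days, and 1190 (9.85%) had an unadjusted p under 0.05. All 3 were also among the 77 of giant cells. Besides Zm.16049.2.A1_at they were Zm.9425.2.A1_x_at, with a log2 change of 1.96 ± 0.14 in giant cells and 1.02 ± 0.14 in control cells, and Zm.13558.1.A1_at, with 1.87 ± 0.25 in giant cells and 1.74 ± 0.25 in control cells (both named because they make up this count). Of the 77, 59 had a change of the same sign in control cells (76.6%, against 62.6% of all probe sets tested), and all 77 had a smaller change there than in giant cells, which their choice by the change in giant cells favours. The median log2 change of the 33 that rose was 1.42 in giant cells and 0.47 in control cells, and that of the 44 that fell was -1.71 in giant cells and -0.29 in control cells.

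No probe set passed the test of the difference between the 2 changes (0 of 12080, limma), although 839 (6.95%) had an unadjusted p under 0.05, and the lowest adjusted p was 0.21. Thus no change of giant cells was shown to differ from that of control cells with all arrays in the fit. Without array 2 of the giant cells of 21 days, 9 probe sets passed that test, all with a lower change in giant cells, among them that of nfd101 at -3.73 ± 0.53 (limma adjusted p = 0.02). Several of the 9 share the number in their ID, so fewer transcripts may be behind them. For nfd101 the array left out was the one of 21 days nearest to those of 14 days, which favours a deeper fall. The 5 named genes with the smallest p in the difference were H1, ROA, pht7, dbf1 and nfd101. dbf1, for a transcription factor that binds dehydration-responsive elements, had 1458, 984 and 1260 in giant cells of 21 days and 735, 496 and 745 in those of 14 days, against 600, 375 and 610 in control cells of 21 days and 1103, 689 and 1120 in those of 14 days. Its arrays thus separated upwards in giant cells (0.90 ± 0.28), while in control cells they separated downwards (-0.87 ± 0.28), and the difference was 1.77 ± 0.40 with a limma adjusted p of 0.36.

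Set against control cells of the same day, 25 of the 33 risen probe sets lay above them at 21 days and 13 of 33 at 14 days. Of the 44 fallen ones, 18 lay above control cells at 21 days and 40 at 14 days. Over all tested probe sets the share above control cells was 57% at 21 days and 58.1% at 14 days. The probe sets were chosen by the same giant-cell arrays, so these counts only describe them.

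**Figure D5:**
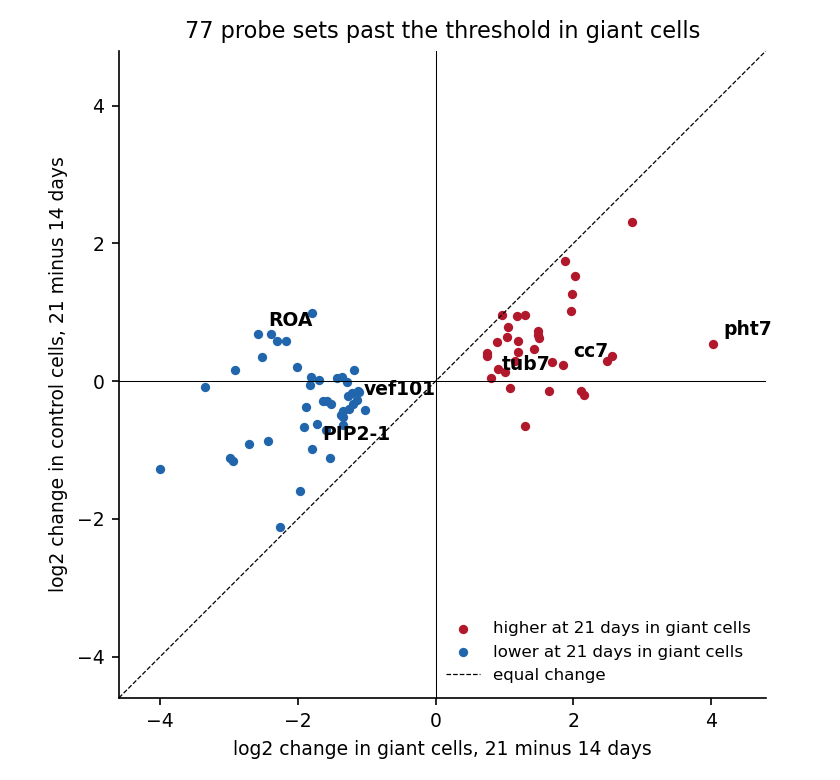
Log2 change between 21 and 14 days in giant cells (horizontal axis) and in control cells (vertical axis) for the 77 probe sets past the threshold in giant cells; the 2 changes share no array. Every point lies nearer to 0 on the vertical axis, and 18 of the 77 have the opposite sign in control cells, ROA among them.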

How the data were processed

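The deposited values are intensity, MAS5 signals on a linear scale made with Affymetrix Expression Console, per the submitters' processing notes. Amplification used NuGEN WT-Ovation Pico reagents, per the labels' protocols. The mean of each array after trimming 2% at each end was 500.1 or 500.2. Nothing on scan dates, batches or the software version was found (not given in the sources used here).

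Signals were raised by 9.50 (their 10th percentile over all arrays) before log2, which understates changes of dim genes. Probe sets above the 40th percentile of their array on at least 3 arrays were tested (12080 of 17621), with no further normalization. Group means (4 groups, 12 arrays) were estimated together with limma 3.58.1 (lmFit, eBayes with a trend) in R 4.3.3. Tests were two-sided, Benjamini-Hochberg adjusted over all probe sets tested, with a threshold of 0.05. Errors are standard errors of that fit, n = 3 arrays a group. Array measures had exact permutation tests.

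The platform annotation gives 1 gene for 1452 probe sets. The B73 RefSeq table (Zm-B73-REFERENCE-NAM-5.0) gave symbols and synonyms, and 1060 of 1108 genes matched. The brightest probe set stood for a gene. Named genes were drawn from the 12 largest rises and 12 largest falls without overlap (those past the threshold first), up to 4 members of each list by p, 5 genes of the difference contrast and 2 unnamed probe sets each way. Not all of these are given. Of the rises thi1-2 (log2 change 1.77) and aba1 (1.45) were left out, and of the falls nph1 (-1.53), none past the threshold. Some list members were left out as well. Others were chosen after their values were seen. The comparison, lists and genes were chosen with earlier results of these data known.

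On simulated data for this comparison, over 12080 probe sets, 151 of 200 changes of 2 log2 units were recovered, 21 of 200 of 1 unit and 0 of 200 of 0.5 units. False calls numbered 9, 2 and 0. The noise was drawn independently for each probe set and array. It held no deviations shared by the genes of an array, so recovery in the real data may differ.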

Additional observations from a re-analysis of the deposited data

How the results depend on the processing

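Alternatives were offsets of 1 and 50, quantile normalization, scaling to the added hybridization controls, no filter and a stricter filter, no variance trend, array weights, giant-cell arrays alone, a replicate block, and leaving out each array. Against 77 probe sets past the threshold in giant cells, 118 passed with quantile normalization, 19 with hybridization-control scaling, 42 with no filter, 125 with the stricter filter, 48 with no trend, 310 with array weights and 358 at an adjusted p of 0.1. Leaving out 1 array gave 4 to 205, and the replicate block 97, of which 39 were among the 77. In giant cells the deviations of same-numbered arrays of the 2 days correlated at 0.05, 0.15 and -0.05. The numbers were therefore not taken as pairs, and not every array correlated best with its own number. In control cells the values were 0.04, 0.24 and -0.05. Between the cell types they were 0.08, -0.03 and 0.16 at 21 days and -0.01, -0.07 and 0.11 at 14 days. Some probe sets of C4ppdkZm1, given below, nevertheless followed the array number. Against 6 named genes, 2 passed with hybridization-control scaling, 3 with no filter, 3 with no trend, 24 with array weights, 27 at an adjusted p of 0.1, and 0 to 15 without 1 array. Against 5 list members, 3 passed with an offset of 1, 2 with hybridization-control scaling, 2 with no filter, 8 with the stricter filter, 2 with no trend, 16 with array weights, and 0 to 13 without 1 array. Against 3 in control cells, 0 passed with hybridization-control scaling, 1 with no filter, 1 with no trend, 9 with array weights, 0 with a replicate block, and 0 to 2 without 1 array. Against 0 in the difference contrast, 0 to 9 passed without 1 array, and 0 under each other alternative, the replicate block included. The cause of these differences was not tested.

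For 103 named genes, 2170 of 2266 alternative values kept direction and side of the threshold, 55 lost and 36 gained a call. The sign turned in 5, namely on the next brightest probe set for PIP2-1 (0.068) and hda113 (0.075), and without 1 array for the starch synthase gene ss1 (values from -0.56 to 0.094) and the invertase gene incw1 (from -0.64 to 0.0038). Of 253 values for 11 list medians, 21 moved beyond the spread between arrays. Signals near background, and 3 arrays a group, limit what could be called.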

Other observations

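Several probe sets of the pyruvate phosphate dikinase gene C4ppdkZm1, an enzyme best known from carbon fixation in leaves, differed between arrays by their number and not by group. The probe set Zm.4471.1.A1_a_at read 2.99, 456 and 319 on arrays 1, 2 and 3 of giant cells of 21 days, and 47.5, 182 and 574 on those of 14 days. In control cells it read 2.32, 198 and 673 on arrays 1, 2 and 3 of 21 days and 8.85, 82.4 and 697 on those of 14 days. Array 1 was thus the lowest in all 4 groups. Zm.4471.3.A1_x_at and Zm.4471.1.A1_x_at had the same order of array 1 below the others in all 4 groups, while the brightest probe set of the gene read 170, 208 and 165 in giant cells of 21 days and 338, 239 and 133 in those of 14 days. These probe sets were chosen after their values were seen, and what the array numbers share is not given in the labels.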
